A study of Homo sapiens with 12 samples.

Results

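The comparison described here set 3 sgEGR1 libraries against 3 sgControl libraries after stem cell factor (SCF), chosen by their labelled guide and treatment, which made 6 of the 12 libraries of the series. All libraries came from HUDEP-2 cells, an immortalised line of human erythroid precursors from umbilical cord blood that is grown with doxycycline and needs SCF and erythropoietin. Every cell carried a lentiviral KRAB-dCas9 repressor with either a scrambled guide (sgControl) or a guide aimed at an element upstream of EGR1 (sgEGR1). The cells were sorted for the GFP marker of that vector. They were then starved of growth factors for 5 h and treated for 1 h with PBS or with 50 ng/mL SCF, so every group shared the vector and the starvation. Each guide stood for its arm alone, which limits the comparison to 1 targeting sequence in 1 line. The study describes its replicates as biological, but whether each was transduced separately is not given in the sources used here, so p-values measure the spread between these libraries.

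SCF is the ligand of the Kit receptor tyrosine kinase, whose ERK arm switches on immediate early genes within minutes. EGR1 is one of these genes, and its product is a zinc finger transcription factor that binds GC-rich sites such as GCGTGGG. One of its known targets is NAB2, whose product binds EGR1 and represses it, a negative feedback loop. In CRISPR interference, catalytically dead Cas9 carries the KRAB domain to DNA without cutting and silences promoters or enhancers near the site.

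The sgEGR1 guide had 1 exact match next to an NGG in hg38, on the plus strand, and its last base with the NGG lay 627 bases before the EGR1 start on chromosome 5 (138465479). The study describes its targeted element as lying farther upstream than this match, and that difference was not resolved here. Measured from the middle of the match, the start of another annotated gene, ENSG00000289267, lay closer, at 163 bases against 638 for EGR1. The level of that gene is not given here. The match is shown because it is the only exact one. The sequence below spans chr5:138464780-138464902 (plus strand, hg38), with the guide match and its NGG in capitals.

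EGR1 upstream site: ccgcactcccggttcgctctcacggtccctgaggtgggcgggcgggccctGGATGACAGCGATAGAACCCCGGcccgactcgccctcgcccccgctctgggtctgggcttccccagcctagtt

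The sgEGR1 guide had no further match with 1 or 2 mismatches and 3 with 3 mismatches. None of these 3 matches lay within 2 kb of an annotated gene start.

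Totals of the 6 SCF libraries ran from 28395464 to 32039680 counts. Values are given as CPM, that is counts scaled to a common library total after TMM normalization, and a gene counted as called at an edgeR quasi-likelihood p below 0.05 after Benjamini-Hochberg adjustment over 15492 genes. The erythroid identity of the cells was checked by marker genes. HBB lay between 13400 and 16030 CPM, TFRC between 3270 and 3763, KIT between 481.9 and 535.1 and GATA1 between 271.2 and 305.4 in the 6 SCF libraries. Myeloid and lymphoid markers were near absent, with summed levels of at most 0.813 and 0.974 CPM, and 0 of 13 myeloid and 0 of 12 lymphoid markers passed the filter on low counts. Replicate 1 of each group differed from replicates 2 and 3 in many genes. A fit with a term for replicate 1 is therefore given beside the fit without it.

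EGR1 was lower in 2 of the 3 sgEGR1 libraries and at the sgControl level in the third. The sgControl SCF libraries held 207.5, 239.5 and 171.4 CPM in replicates 1, 2 and 3, and the libraries labelled sgEGR1 SCF held 40.4, 57.4 and 203.6 CPM. Replicate 3 therefore lay inside the sgControl range, at 98.8% of the sgControl mean, and goes against its label, while replicates 1 and 2 lay at 19.6% and 27.8%. The PBS libraries showed no such exception, with 10.9, 5.99 and 7.45 CPM in sgControl and 2.04, 1.12 and 0.977 CPM in sgEGR1. Between PBS and SCF libraries of the same number, EGR1 was 19.1, 40.0 and 23 times higher in sgControl cells, and 19.8, 51.3 and 208 times higher in sgEGR1 cells. The library labelled sgEGR1 SCF replicate 3 is named in this way below, and the values without it are given beside those with all libraries wherever a call differs. The edgeR fit that had the replicate 1 term and omitted this library is called the reduced fit.

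With all libraries, the edgeR log2 difference of EGR1, sgEGR1 minus sgControl after SCF, was -1.03 (SE 0.45, edgeR adjusted p = 1). It was -2.08 with the library labelled sgEGR1 SCF replicate 3 omitted (SE 0.234), and -2.08 in the reduced fit (SE 0.192). That library was set apart for its EGR1 level, so these values of EGR1, and its calls in fits without the library, describe that choice and are no test. An exact two-sided permutation test on log2 CPM gave p = 0.2 for 3 against 3 libraries. It exchanged libraries freely, without regard to pairs of the same number, and 0.1 is the smallest p possible in that way. In bulk RNA, fewer cells with the transcript and less transcript per cell cannot be told apart.

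NAB2 followed the same libraries. It held 53.6, 29.7 and 33.4 CPM in sgControl SCF replicates 1, 2 and 3, and 19.7, 17.4 and 35.3 CPM in sgEGR1 SCF. Replicates 1 and 2 of sgEGR1 lay below every sgControl SCF library and near the PBS level, which ran from 16.3 to 21.9 CPM over both guides, whereas the library labelled sgEGR1 SCF replicate 3 lay inside the sgControl range. The ratio of SCF to PBS in libraries of the same number was 2.45, 1.48 and 1.74 in sgControl cells, and 1.19, 1.07 and 2.07 in sgEGR1 cells. The edgeR log2 difference of NAB2 was -0.69 with all libraries (SE 0.248, edgeR adjusted p = 1). In the reduced fit it came to -1.10 (SE 0.147, edgeR adjusted p = 0.0133), and without that library alone -1.07 (edgeR adjusted p = 0.278). Exact permutation tests of NAB2 gave p = 0.3 for 3 against 3 and p = 0.1, again the smallest possible, for 2 against 3 libraries. The library labelled sgEGR1 SCF replicate 3 was set apart for its EGR1 level, and NAB2 followed EGR1 in these libraries. The NAB2 values and calls without it are therefore not independent of that choice and are no separate test. NAB2 shares exon sequence with STAT6 on the opposite strand, and STAT6, named here for that overlap, ran from 94.4 to 101 CPM in sgControl SCF and from 98.2 to 104 CPM in sgEGR1 SCF.

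**Figure D1:**
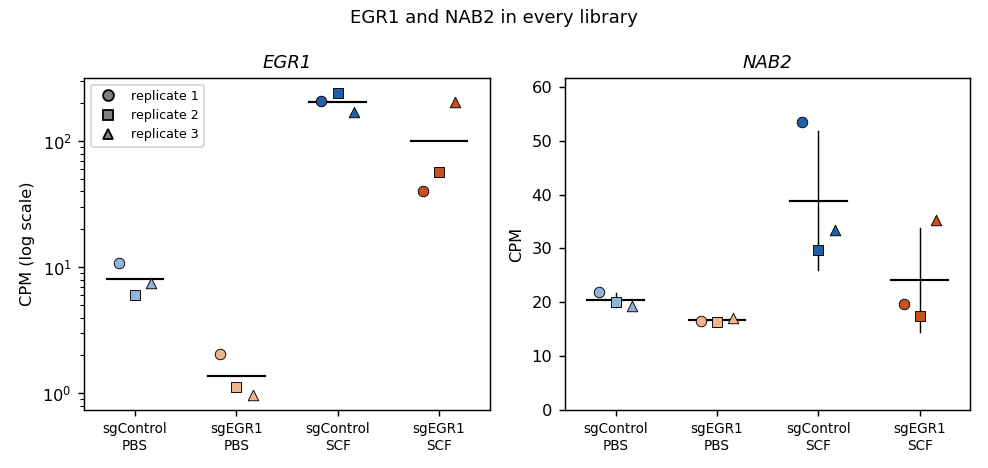
EGR1 (left, CPM on a log axis) and NAB2 (right, CPM) in each of the 12 libraries, with symbols for the replicate number, horizontal bars for the group mean and, for NAB2, vertical bars for 1 SD (n = 3). The triangle of sgEGR1 SCF, replicate 3, lies among the sgControl SCF libraries for both genes, at 203.6 CPM of EGR1 and 35.3 CPM of NAB2.

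The other EGR and NAB genes were at like levels with both guides. EGR2, a paralog induced by SCF, held 18.5, 23.7 and 24.3 CPM in sgControl SCF and 15.6, 25.2 and 25.4 CPM in sgEGR1 SCF, with overlapping ranges and a log2 difference of -0.01 (SE 0.198, edgeR adjusted p = 1), or -0.06 in the reduced fit (SE 0.093, edgeR adjusted p = 0.944). NAB1, the second corepressor of the family, ran from 17.3 to 19.8 CPM in sgControl and from 16.4 to 18.3 CPM in sgEGR1 (log2 difference -0.09, SE 0.0895, edgeR adjusted p = 1), with -0.11 in the reduced fit (SE 0.09, edgeR adjusted p = 0.857). EGR3 stayed below 1 CPM in every SCF library, and EGR4 did not pass the filter on low counts. SPRED2, an inhibitor of Ras and ERK signalling that the study followed as an EGR1 target and that is named here outside the rule for named genes, held 31.8, 19.0 and 17.6 CPM in sgControl SCF and 23.02, 19.1 and 17.2 CPM in sgEGR1 SCF. Its ranges overlapped, and its log2 difference was -0.21 (SE 0.186, edgeR adjusted p = 1) with all libraries and -0.15 (SE 0.15, edgeR adjusted p = 0.901) in the reduced fit.

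Whether the library labelled sgEGR1 SCF replicate 3 also lay with sgControl in genes other than EGR1 was examined with genes chosen in the PBS libraries alone, which hold none of the SCF libraries. With a term for replicate 1, 421 genes had an unadjusted p below 0.01 between guides after PBS, 222 of them higher and 199 lower in sgEGR1. A score, the mean log2 CPM of the first set minus that of the second, was then read in the SCF libraries. It was 0.897, 0.48 and 0.462 in sgControl replicates 1, 2 and 3 and 1.36, 1.06 and 0.593 in sgEGR1. The score was thus higher in sgEGR1 than in the sgControl library of the same number by 0.465 and 0.577 for numbers 1 and 2, and by 0.131 for number 3. Of the 421 genes, 346 (82.2%) and 355 (84.3%) kept their PBS direction in pairs 1 and 2, and 250 (59.4%) did so in pair 3. Leaving out EGR1 itself gave 82.1%, 84.3% and 59.5%, and a choosing fit without the replicate 1 term gave 82.7%, 79.8% and 48.1% of 104 genes, with a score difference of -0.0138 in pair 3. A stricter choice, at a p below 0.001, gave score differences of 0.799, 0.941 and 0.265 over 93 genes. These genes share libraries and are not independent of each other, so no test is given.

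**Figure D2:**
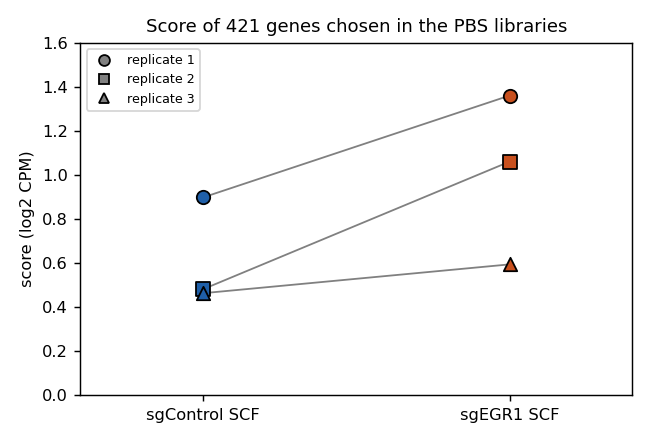
Score of the 421 genes chosen in the PBS libraries (y axis, mean log2 CPM of the genes higher in sgEGR1 minus that of the genes lower), read in the 6 SCF libraries, with lines joining libraries of the same number. Replicates 1 and 2 of sgEGR1 SCF lie 0.465 and 0.577 above their sgControl partners, and replicate 3 lies 0.131 above.

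With all 6 SCF libraries, edgeR called 0 of 15492 genes (0.0%) between guides after SCF. At an unadjusted p below 0.05 it counted 361 genes, and DESeq2 called 5, RNA28SN2, RNA45SN4, CAP1 and FMC1-LUC7L2 higher and IFI27L1 lower. The same edgeR fit called 0 genes after PBS, with 715 at an unadjusted p below 0.05 and 20 by DESeq2. The term for replicate 1 gave 2 calls after SCF (0.0129%), RNA45SN4 and SYS1-DBNDD2, and the replicate number as a block called the same 2 genes (0.0129%). With sgEGR1 SCF replicate 3 omitted, the 2 calls were EGR1 and BZW1-AS1 (0.0129%). In the reduced fit, edgeR called 41 genes (0.265%), 14 higher (0.0904%) and 27 lower (0.174%) in sgEGR1. With the replicate block in place of the term, 28 of the 41 were called and 13 were not, namely RNA28SN2, CAP1 and TIMP3 among the higher and P2RX5, DOK3, ACP3, CLIP2, CDC42BPG, LIME1, CAPRIN2, NUCB2, CST6 and SLC9B1 among the lower genes, with edgeR adjusted p from 0.0622 to 0.0976. Leaving out any of the other 5 SCF libraries with the same term gave 0 to 4 calls. Genes whose CPM did not overlap between the guides numbered 559 higher (3.61%) and 547 lower (3.53%) in sgEGR1 for 3 against 3 libraries. In an exact permutation of 3 against 3 libraries, such a separation in either direction has p = 0.1. A lack of overlap in a single gene is therefore no sign of a guide difference by itself. For 2 against 3 libraries these numbers were 1293 (8.35%) and 1315 (8.49%).

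Some genes kept the guides apart in all 6 SCF libraries, the one labelled sgEGR1 SCF replicate 3 included. RNA45SN4, a copy of the 45S precursor of ribosomal RNA, held 96.4, 127 and 106 CPM in sgControl SCF and 200, 194 and 200 CPM in sgEGR1 SCF. Its log2 difference was 0.85 (SE 0.149, edgeR adjusted p = 0.706), and it was called with the replicate 1 term (0.86, edgeR adjusted p = 0.029), with the replicate block (0.86, edgeR adjusted p = 0.04) and by DESeq2. After PBS the same gene ran from 126 to 187 CPM in sgControl and from 123 to 169 CPM in sgEGR1, with overlapping ranges. RNA28SN2, a 28S ribosomal RNA copy, held 0.563, 0.433 and 1.35 CPM in sgControl SCF and 4.52, 4.37 and 3.59 CPM in sgEGR1 SCF (log2 difference 2.40, edgeR adjusted p = 0.706). Ribosomal RNA genes exist in near-identical copies among which reads can be split, and the sources differ on the library kit, so the levels of single copies are uncertain. RNA45SN1, another copy named here for comparison, ran from 4.49 to 19.9 CPM in sgControl SCF and from 5.14 to 55.3 CPM in sgEGR1 SCF, with overlapping ranges.

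ANXA1, a calcium-dependent phospholipid-binding protein of inflammation control, held 15.9, 13.0 and 13.99 CPM in sgControl SCF and 19.5, 21.4 and 21.5 CPM in sgEGR1 SCF, with no overlap (log2 difference 0.54, SE 0.127, edgeR adjusted p = 1, and 0.121 in the reduced fit). CAP1, a regulator of actin turnover, held 119, 120 and 125 CPM in sgControl and 143, 145 and 136 CPM in sgEGR1 (log2 difference 0.22, SE 0.0431). It missed the threshold in the edgeR fit with all libraries (adjusted p = 1) and passed it by DESeq2 and in the reduced fit (edgeR adjusted p = 0.0352), but not with the replicate block in place of the term (edgeR adjusted p = 0.0633). SLCO5A1, an organic anion transporter of uncertain substrate, held 4.38, 5.67 and 5.63 CPM in sgControl and 10.6, 12.35 and 8.96 CPM in sgEGR1 (log2 difference 1.03, edgeR adjusted p = 1, and 0.0858 in the reduced fit). The read-through gene EEF1E1-BLOC1S5 had a log2 difference of 1.59 (edgeR adjusted p = 1), but it shares exons with both of its parent genes, which makes its counts uncertain. The same rule, which required the guides not to overlap, also named TMPRSS11F and the processed pseudogenes RPL13P12, RPS15P4, RPS2P46 and FTH1P20. Their log2 differences ran from 0.56 in FTH1P20 to 0.75 in RPL13P12 with adjusted p = 1 by edgeR, and the pseudogenes share sequence with their parent genes, which makes their counts uncertain.

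The same rule named genes that lay lower in all 3 sgEGR1 SCF libraries, none of them past the adjusted threshold with all libraries. FMO5, a flavin-dependent monooxygenase, held 3.66, 4.40 and 4.09 CPM in sgControl SCF and 2.76, 1.98 and 2.34 CPM in sgEGR1 SCF (log2 difference -0.78, SE 0.198, edgeR adjusted p = 1). FNDC4, a secreted fibronectin type III protein, held 5.72, 4.13 and 3.87 CPM in sgControl and 2.04, 1.87 and 3.12 CPM in sgEGR1 (log2 difference -0.96, SE 0.271, edgeR adjusted p = 1). ZNF91, a KRAB zinc finger repressor of retrotransposons, held 13.1, 10.7 and 10.6 CPM in sgControl and 6.83, 6.03 and 10.1 CPM in sgEGR1 (log2 difference -0.58, SE 0.164, edgeR adjusted p = 1). In both FNDC4 and ZNF91 the library labelled sgEGR1 SCF replicate 3 lay below the sgControl range and above the other 2 sgEGR1 libraries. Both were called in the reduced fit, where FNDC4 fell by 1.29 (edgeR adjusted p = 0.0133) and ZNF91 by 0.86 (edgeR adjusted p = 0.00723) on the log2 scale, whereas FMO5 was not (-0.79, edgeR adjusted p = 0.3). STARD4, a carrier of cholesterol inside the cell, SNAPC2, a subunit of the complex that transcribes small nuclear RNA genes, DESI1, a deSUMOylating peptidase, and EIF1AD, an EIF1A-domain protein, had log2 differences from -0.32 in SNAPC2 to -0.17 in EIF1AD, with an edgeR adjusted p of 1 in each, and from 0.0609 to 0.411 in the reduced fit.

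**Figure D3:**
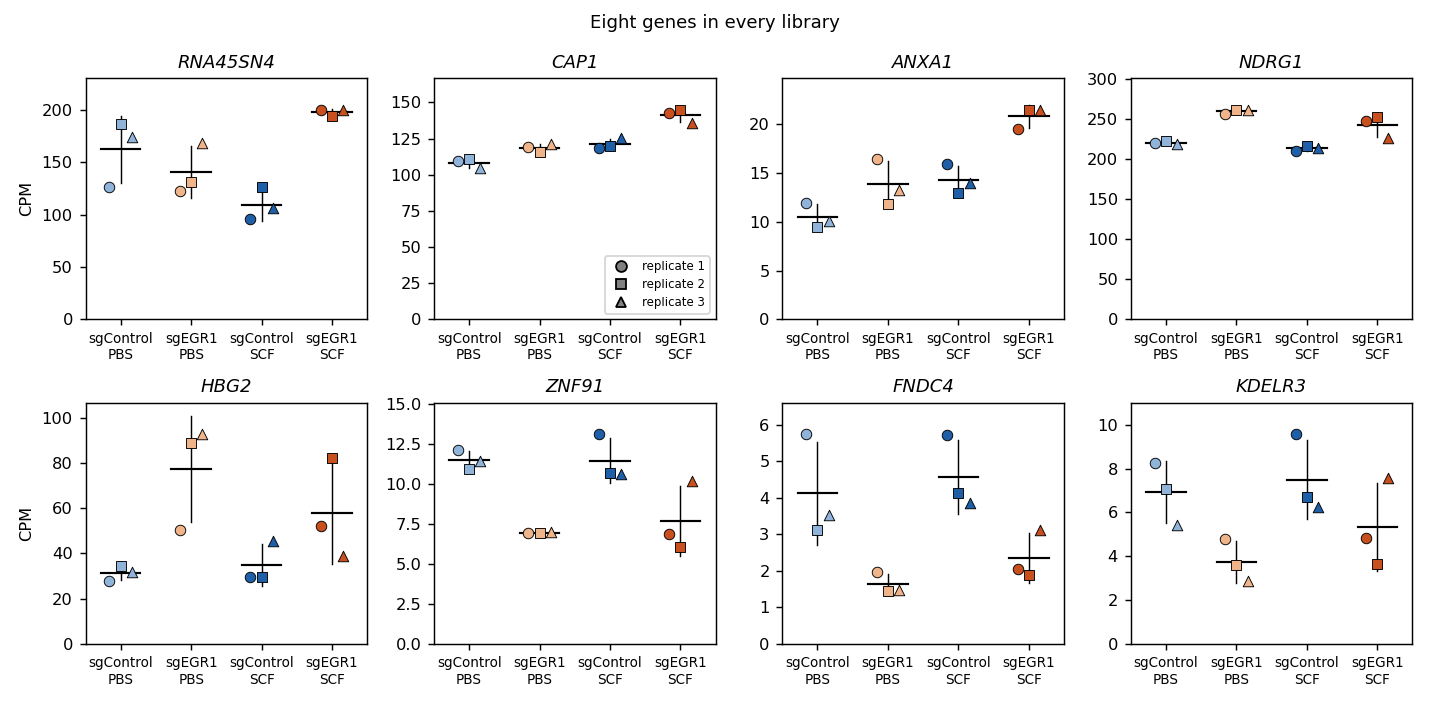
CPM of 8 genes in each of the 12 libraries, with symbols for the replicate number, horizontal bars for the mean and vertical bars for 1 SD (n = 3). RNA45SN4, CAP1 and ANXA1 are higher in all 3 sgEGR1 SCF libraries. The triangle of sgEGR1 SCF lies within the sgControl SCF range for HBG2 and KDELR3. For ZNF91 and FNDC4 it lies below that range and above the other sgEGR1 SCF libraries.

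The 41 genes called in the reduced fit could be read in the library labelled sgEGR1 SCF replicate 3, whose values took no part in that fit. It was left out for its EGR1 level, so the reading is not independent for EGR1 and NAB2, both among the 41. That library lay inside the range of the 3 sgControl SCF libraries for 27 of the 41 genes, beyond it on the sgEGR1 side for 10 and beyond it on the other side for 4. EGR1 and NAB2 were among the 27. These counts were not made over all genes tested, so they are no test. With the sign of the fit taken out, the median log2 difference from the sgControl library of the same number was 0.81 in pair 1 and 0.62 in pair 2, which took part in the choice, and 0.05 in pair 3. The PBS libraries are not compared in the SCF contrast, but they share its model, from which its spread and replicate 1 term were estimated, so the PBS values of these genes are not independent of the choice. After PBS, 36 of the 41 kept their sign in the edgeR fit with all libraries, and 20 did so with an unadjusted p below 0.05. Over all genes, 715 of 15492 had an unadjusted p below 0.05 after PBS in that fit. How many of all genes kept their sign was not counted. In the reduced fit, 54 of 15492 genes were called after PBS and 20 genes were called after both treatments, all 20 in the same direction. This is 48.8% of the SCF calls and 37.0% of the PBS calls.

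**Figure D4:**
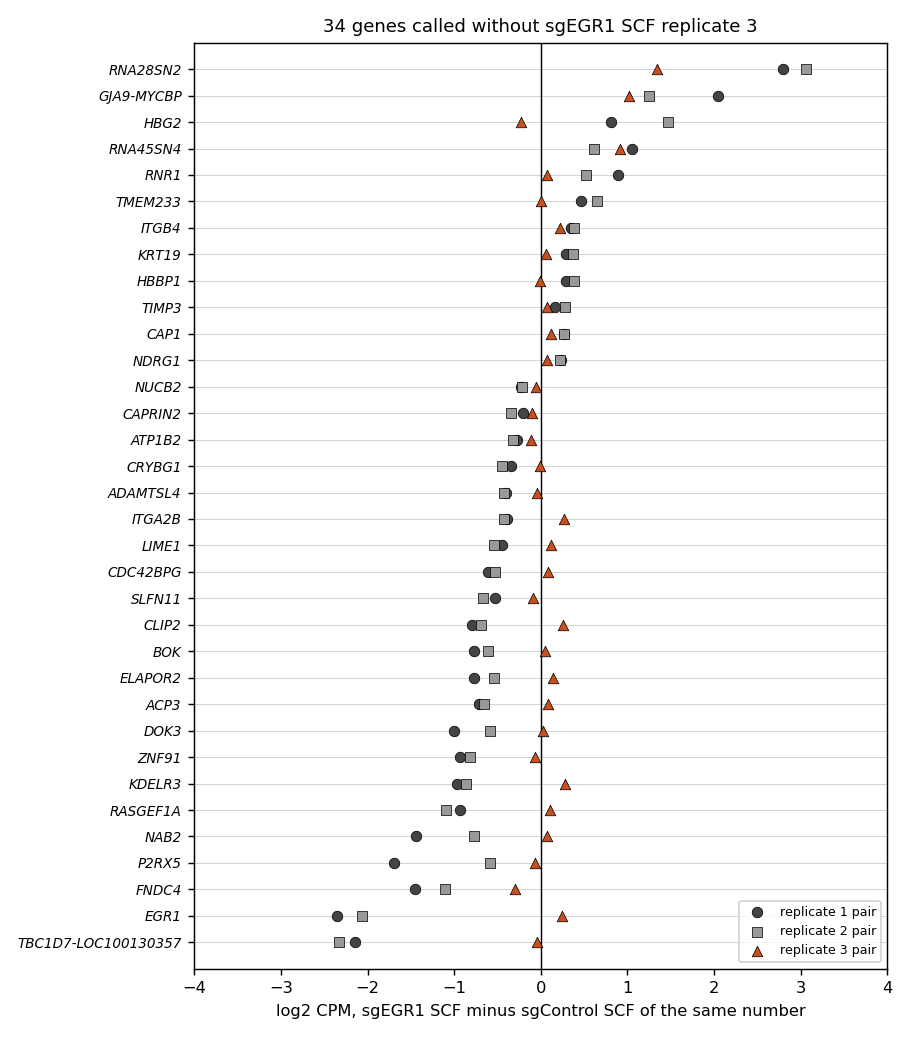
Log2 CPM of sgEGR1 SCF minus sgControl SCF in pairs of the same number (x axis) for the 34 of the 41 called genes with a mean of at least 2 CPM. Pairs 1 and 2, used in the choice, lie away from 0, whereas pair 3 (triangles) lies near 0 for most genes, with RNA28SN2, GJA9-MYCBP and RNA45SN4 as the exceptions above 0.9.

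KDELR3, a receptor that returns proteins to the endoplasmic reticulum, held 9.57, 6.70 and 6.22 CPM in sgControl SCF and 4.83, 3.64 and 7.56 CPM in sgEGR1 SCF, so that replicates 1 and 2 lay below sgControl and replicate 3 among it. It fell by 0.90 on the log2 scale (edgeR adjusted p = 0.0305). After PBS, KDELR3 held 8.27, 7.09 and 5.43 CPM in sgControl and 4.77, 3.58 and 2.86 CPM in sgEGR1. P2RX5, an ATP-gated ion channel, held 6.57, 4.70 and 5.75 CPM in sgControl SCF and 1.97, 3.09 and 5.50 CPM in sgEGR1 SCF (edgeR adjusted p = 0.0396), and it shares exons with a read-through gene. RASGEF1A, an exchange factor for Ras family proteins, held 5.38, 7.23 and 5.44 CPM in sgControl SCF and 2.76, 3.33 and 5.87 CPM in sgEGR1 SCF (edgeR adjusted p = 0.0215). In both genes replicates 1 and 2 of sgEGR1 lay below every sgControl library. DOK3, an adaptor that dampens receptor signalling, fell by 0.72 on the log2 scale, and ACP3, an acid phosphatase, by 0.69, with replicate 3 at 19.4 and 8.12 CPM against sgControl ranges of 17.5 to 20.1 and 6.94 to 7.67 CPM.

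BOK, a death-promoting relative of BCL2, held 17.0, 10.97 and 10.3 CPM in sgControl SCF and 9.94, 7.18 and 10.7 CPM in sgEGR1 SCF, and it fell by 0.67 on the log2 scale (edgeR adjusted p = 0.0189). CLIP2, a linker of microtubules, fell by 0.66, SLFN11, a factor in the response to replication stress, by 0.61, and CDC42BPG, a kinase of the cytoskeleton, by 0.52. ITGA2B, the platelet integrin subunit of the megakaryocyte list, held 15.8, 27.3 and 29.2 CPM in sgControl SCF and 12.01, 20.3 and 35.2 CPM in sgEGR1 SCF. It fell by 0.44 in the reduced fit (edgeR adjusted p = 0.015), while the groups overlapped and the fit with all libraries gave -0.10 (edgeR adjusted p = 1). Besides FNDC4 and ZNF91 above, the remaining called genes that fell and averaged at least 2 CPM were ELAPOR2, LIME1, ADAMTSL4, CRYBG1, ATP1B2, CAPRIN2, NUCB2 and TBC1D7-LOC100130357, the last a read-through gene.

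Some called genes had no count in sgEGR1 SCF replicates 1 and 2, and folds against them were taken from a floor of 3 counts per library. BZW1-AS1, an antisense RNA of BZW1, had 35 to 54 counts in the sgControl SCF libraries and was at least 14.3-fold lower in those 2 libraries, but it had 57 counts in the library labelled sgEGR1 SCF replicate 3 and 1.396 to 1.49 CPM in the sgEGR1 PBS libraries. RASAL1, a Ras GTPase-activating protein, was at least 11.5-fold lower and SLC9B1 at least 6.81-fold lower in the same 2 libraries, with 48 and 29 counts in the library labelled sgEGR1 SCF replicate 3. RASAL1 had no count in any sgEGR1 PBS library either. SYS1-DBNDD2, a read-through gene called in the reduced fit, with the replicate 1 term and with the block, rested on 1 library, since it held 11.1 CPM in sgControl SCF replicate 1 and no count in the other 5 SCF libraries. Overlapping exons on either strand make the counts of BZW1-AS1, SLC9B1 and SYS1-DBNDD2 uncertain. JMJD1C-AS1, CST6 and ABLIM3 were also called and lay below 2 CPM on average, with log2 differences of 2.90, -3.41 and 2.01.

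Among the genes higher in this fit were HBG2 and HBBP1 of the beta-globin cluster. HBG2, one of the 2 fetal gamma-globins, held 29.6, 29.6 and 45.6 CPM in sgControl SCF and 52.0, 82.2 and 38.8 CPM in sgEGR1 SCF, so that replicates 1 and 2 lay above and replicate 3 within the sgControl range. It rose by 1.00 on the log2 scale (SE 0.155, edgeR adjusted p = 0.0215). After PBS, HBG2 held 27.9, 34.6 and 31.7 CPM in sgControl and 50.4, 88.9 and 92.7 CPM in sgEGR1, with no overlap. HBG1, its near-identical paralog, named for that reason, held 35.7, 52.3 and 61.4 CPM in sgControl SCF and 94.4, 146 and 64.6 CPM in sgEGR1 SCF, and it missed the threshold (log2 difference 1.49, edgeR adjusted p = 0.503). HBG1 had no count in sgControl PBS replicate 1, and reads can be split between the paralogs. HBBP1, the beta-globin pseudogene, rose by 0.30, whereas HBB, the adult gene, ran from 13400 to 16030 CPM in sgControl SCF and from 14390 to 15310 CPM in sgEGR1 SCF, with overlapping ranges.

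The other genes higher in that fit were of mixed function. NDRG1, a gene induced by hypoxia and stress, held 210, 217 and 214 CPM in sgControl SCF and 247, 253 and 226 CPM in sgEGR1 SCF, and it rose by 0.23 on the log2 scale (SE 0.0325, edgeR adjusted p = 0.0138). After PBS it lay at 218 to 222 CPM in sgControl and 257 to 261 CPM in sgEGR1, with no overlap. ITGB4, an integrin subunit, rose by 0.41, KRT19, a keratin, by 0.37, TIMP3, an inhibitor of metalloproteases, by 0.25, and TMEM233, a membrane protein, by 0.55. In these 4 genes replicate 1 was the highest library of each group, so the ranges overlapped between the guides, and the calls depended on the replicate 1 term. RNR1, the 12S ribosomal RNA of the mitochondrial genome, held 595, 635 and 627 CPM in sgControl SCF and 1103, 911 and 659 CPM in sgEGR1 SCF (edgeR adjusted p = 0.0359). After PBS it ran from 615 to 872 CPM in sgControl and from 619 to 746 CPM in sgEGR1. GJA9-MYCBP is a read-through gene that rose by 1.94.

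The promoters of the called genes were searched for the EGR motif, since EGR1 binds DNA. RefSeq promoters (GRCh38.p14, 250 bases before to 50 after the start) were at hand for 24 of the 41 called genes and 10992 of the 15492 tested genes. The letters GCGTGGG were searched on both strands and occurred in 7 of the 24 (29.2%), in 1076 of the 10992 (9.79%) and in 1840 of all 27305 promoters of the table (6.74%). The 7 genes were NAB2, FNDC4, KDELR3, CLIP2, SLFN11 and BZW1-AS1, which were lower, and CAP1, which was higher in sgEGR1. The call of NAB2 is not independent of the choice of the omitted library. CLIP2 and CAP1 were not called with the replicate block in place of the term (edgeR adjusted p = 0.067 and 0.0633). The share among called genes is therefore no test. A match is a run of letters and not a measured binding site. The 250 bases before the NAB2 start, at chr12:57088864-57089113 on the plus strand, are shown first as the gene of the EGR1 feedback loop. Shorter windows follow for the other genes with a mean of at least 2 CPM, each 5′ to 3′ on the gene's strand, with the motif, or its reverse complement CCCACGC, in capitals. Their positions are chr2:27495392-27495428 (minus) for FNDC4, chr22:38468059-38468095 (plus) for KDELR3, chr7:74289316-74289352 (plus) for CLIP2, chr17:35373667-35373703 (minus) for SLFN11 and chr1:40040111-40040147 (plus) for CAP1.

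NAB2 promoter: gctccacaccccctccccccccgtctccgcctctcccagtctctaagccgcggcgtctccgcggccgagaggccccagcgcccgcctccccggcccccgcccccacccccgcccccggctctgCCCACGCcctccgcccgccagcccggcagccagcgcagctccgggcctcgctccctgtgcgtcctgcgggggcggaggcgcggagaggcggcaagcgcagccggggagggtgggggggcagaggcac

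FNDC4: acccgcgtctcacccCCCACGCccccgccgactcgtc

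KDELR3: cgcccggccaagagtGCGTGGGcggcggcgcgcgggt

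CLIP2: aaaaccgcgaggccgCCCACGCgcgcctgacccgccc

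SLFN11: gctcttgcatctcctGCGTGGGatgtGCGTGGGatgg

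CAP1: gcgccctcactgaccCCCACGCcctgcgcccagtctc

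SLFN11 was the 1 gene of these with the motif present more than once. Over all 1076 tested genes with the motif, the median log2 difference was -0.0041 with all libraries, against -0.0011 over the 9916 without it. In the first set 49 genes (4.55%) lay lower and 29 (2.70%) higher without overlap between the guides, and in the second 302 (3.05%) and 316 (3.19%). With sgEGR1 SCF replicate 3 omitted, these shares were 9.94% lower and 7.34% higher with the motif, and 7.77% lower and 7.67% higher without it. GC content was not matched between the sets.

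Genes near the guide site were examined because repression by KRAB can spread. Of 22 genes with a RefSeq start within 500 kb of EGR1, 13 were tested. With all libraries edgeR called 0 of them (0.0% over all genes tested), and DESeq2 called 0. At an unadjusted edgeR p below 0.05 there were 0, against 2.33% over all genes tested. With 13 genes and so low a share, these counts cannot show whether repression spread. The log2 differences of the 13 ran from -0.25 to 0.10, with a median of -0.01, or -0.03 in the reduced fit. REEP2, a membrane-shaping protein gene and the lowest of them, held 2.35, 1.73 and 1.41 CPM in sgControl SCF and 1.21, 1.42 and 1.97 CPM in sgEGR1 SCF. ETF1, a translation termination factor, ran from 281 to 316 CPM in sgControl SCF and from 283 to 313 CPM in sgEGR1 SCF. HSPA9, a mitochondrial chaperone, was the 1 gene of the 13 without overlap (7.69%, against 3.53% lower over all genes tested). It lay at 434 to 441 CPM in sgControl and 409 to 433 CPM in sgEGR1 (log2 difference -0.05, edgeR adjusted p = 1).

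The genes that respond to SCF had median differences between the guides near 0, which does not describe their spread. By the response averaged over the guides, a choice that does not favour a difference between them, 865 genes rose and 534 fell. Their median log2 differences between guides after SCF were -0.01 and -0.0020, against -0.0004 over all genes tested. With all libraries edgeR called 0 of them, while 47 (3.36%, against 2.33% over all genes) had an unadjusted p below 0.05 and DESeq2 called 3. Without overlap in 3 against 3 libraries, 4.28% of the genes that rose lay lower and 4.62% higher in sgEGR1. These shares were 4.87% and 3.93% for the genes that fell, and 3.53% and 3.61% over all genes tested. In the reduced fit, edgeR called 5 of these 1399 genes (0.357%, against 0.265% over all genes), EGR1, NAB2 and TBC1D7-LOC100130357 lower and RNA28SN2 and CAP1 higher. FOSL1, an AP-1 subunit and immediate early gene, held 16.01, 15.4 and 15.4 CPM in sgControl SCF and 18.6, 23.9 and 18.7 CPM in sgEGR1 SCF without overlap (log2 difference 0.39, edgeR adjusted p = 1, and 0.175 in the reduced fit).

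Over 21 gene lists, edgeR with all libraries called 0 members, and list medians of the log2 difference lay between -0.13 and 0.17. The myeloid and lymphoid lists had no tested member. Of 30 immediate early genes tested, 0 lay lower and 2 higher without overlap, with a median of 0.06, against 3.53% lower and 3.61% higher over all genes tested, and of 12 ERK feedback inhibitors 0 lay apart in either direction, with a median of -0.02. Of 21 textbook EGR1 target genes tested, 1 lay lower and 0 higher without overlap. The median of that list was 0.02. In the reduced fit, which called 0.265% of all genes tested, edgeR called 4 list members, EGR1, NAB2 and ITGA2B lower and HBG2 higher. Of these, NAB2 belongs to the EGR1 target list. Of the 18 tested genes that the study names, edgeR called EGR1 and NAB2 in that fit. The omitted library was set apart for its EGR1 level, so the call of EGR1 is no test and that of NAB2 is not independent of the choice.

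The medians of the erythroid lists lay near 0, but some members lay apart. The 16 GATA factors and erythroid regulators had a median of 0.01, with 2 higher without overlap (12.5%, against 3.61% over all genes). Among them was KIT, the receptor of SCF, at 482 to 502 CPM in sgControl SCF and 509 to 535 CPM in sgEGR1 SCF (edgeR adjusted p = 1). The 27 erythroid maturation genes had a median of -0.02. Of these, 1 (3.7%) lay higher without overlap, namely HBG1 (log2 difference 1.03 with all libraries), and HBG2 was called in the reduced fit. Survival and death genes (25 tested, median -0.02), p53 target and growth arrest genes (19, median 0.05), DNA replication genes (24, median -0.0028) and mitosis genes (22, median -0.0046) held no called member with all libraries or in the reduced fit. The same was true of interferon response genes (16, median 0.03), ATF4 target and stress genes (19, median 0.02), heat shock genes (14, median -0.03), cholesterol synthesis genes (19, median -0.01), glycolysis and hypoxia genes (20, median 0.03) and the 13 protein-coding genes of the mitochondrial genome (median 0.07). BOK and the ribosomal RNA gene RNR1, both called in the reduced fit, are not members of the survival and mitochondrial lists. Within these lists GAPDH, a glycolytic enzyme, lay at 2000 to 2051 CPM in sgControl SCF and 2115 to 2246 CPM in sgEGR1 SCF (log2 difference 0.10), LSS, an enzyme of cholesterol synthesis, at 11.45 to 11.6 and 13.5 to 14.1 CPM, and ISG15, an interferon-induced modifier, at 5.72 to 6.88 and 7.42 to 7.94 CPM. Each had no overlap between the guides and an edgeR adjusted p of 1. In the other direction, DDX58 of the interferon list lay at 8.79 to 10.2 CPM in sgControl SCF and 7.63 to 8.34 CPM in sgEGR1 SCF. It had no overlap either (log2 difference -0.22).

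**Figure D5:**
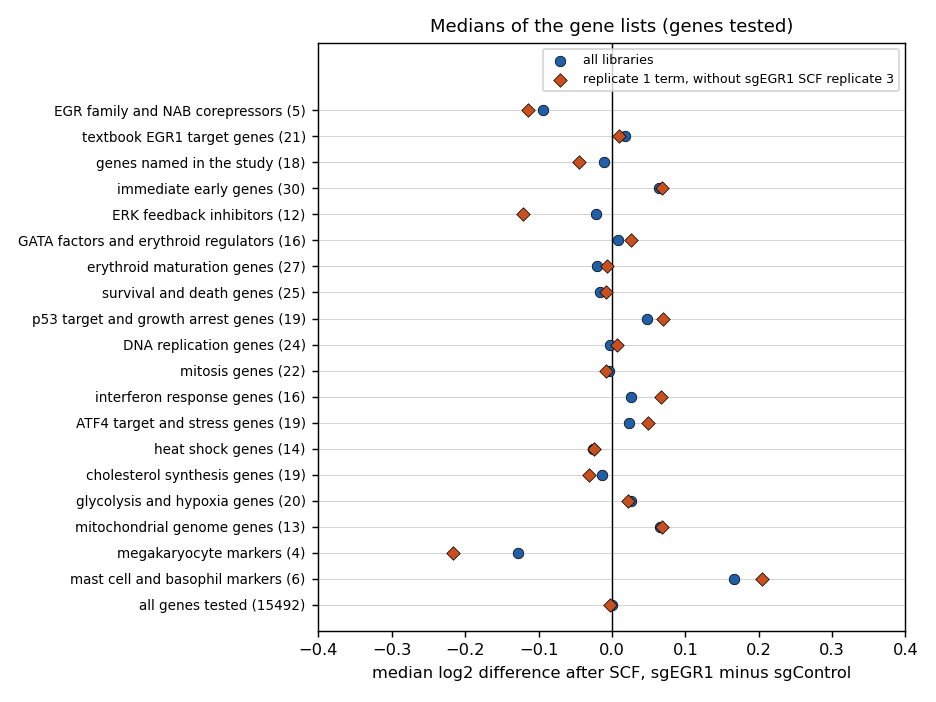
Median log2 difference after SCF, sgEGR1 minus sgControl (x axis), for each gene list with tested members (their number in brackets), with all libraries (circles) and in the reduced fit (diamonds). All medians lie between -0.22 and 0.21, and that of all genes tested lies at 0.

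Markers of other blood cells were also set side by side. Megakaryocyte markers, with 4 of 11 tested, had summed levels of 26.6 to 35.1 CPM in sgControl SCF and 25.3 to 44.3 CPM in sgEGR1 SCF. Mast cell and basophil markers, with 6 of 9 tested, had 306 to 609 CPM in sgControl SCF and 377 to 596 CPM in sgEGR1 SCF, and the highest library of each group was replicate 1. These levels overlapped between the guides, and their part in the results above was not tested.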

How the data were processed

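RNA-seq of 12 HUDEP-2 libraries was analysed from 1 table. It holds the estimated counts that the authors deposited for each gene and library, obtained with StringTie after alignment of the read pairs to hg38 by HISAT. They are scaled neither for depth nor for length. The annotation release and the handling of multi-mapping reads are not given in the sources used here. The study calls the libraries strand-specific, but whether strand was used in counting is not given, and the sources differ on the library kit, so overlapping genes are uncertain. The deposited values were rounded to whole numbers, which changed 0 of them, and 0 columns were left unused. The column code of the guide was read as sgEGR1, the only construct in the labels besides the scrambled control.

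The table listed 54628 genes, of which 27654 had a count in any library and 15492 passed filterByExpr. Library totals ran from 23498065 to 32039680 counts over the series. CPM used totals scaled by TMM. Where a library had no count, 3 counts served as its floor, which covers counting error only. All 12 libraries entered 1 model with a mean for each group (edgeR 4.0.16, R 4.3.3), differences were tested by its quasi-likelihood method, and Benjamini-Hochberg adjusted p-values below 0.05 counted as called. The reduced fit added a term for replicate 1 and omitted sgEGR1 SCF replicate 3. Fits without a library kept the same 15492 genes. The median square root of the dispersion was 0.104. Alternatives were a term for replicate 1, the replicate number as a block, other libraries, filters and scaling, and DESeq2 1.42.0. Deviations of same-numbered libraries correlated at 0.269, 0.102 and 0.126 after SCF and 0.232, 0.103 and 0.119 after PBS. Between libraries of different number they correlated at -0.167 to 0.057. The numbers were therefore taken to pair the libraries. Only the fits with the replicate block used these pairs in full, whereas the fit with all libraries and the permutation tests did not use them. The labels give no batch. Replicates differed from each other by more than sampling noise in every group. The code was tested on simulated counts. The sgEGR1 guide was taken from the study's supplementary sequences and matched to hg38 with up to 3 mismatches and an NGG. The sequence of the other guide is not reported here. Promoters came from RefSeq.

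The libraries, gene lists and tests were chosen with earlier results of these data known. Named were EGR1, NAB2 and their families, the 10 highest and 10 lowest genes with an unadjusted p below 0.01, a mean of at least 2 CPM and no overlap between guides, the 10 highest and lowest called with the replicate 1 term and without sgEGR1 SCF replicate 3, up to 3 members of each list, and genes called in the other fits. Of these, those that inform the comparison are printed. The other called genes were added after their values were seen, as were HBG1, STAT6, SPRED2, RNA45SN1 and erythroid markers.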

Additional observations from a re-analysis of the deposited data

Results flagged for a closer look

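RNA45SN4 was lower after SCF than after PBS in 3 of 3 sgControl pairs of the same number and higher in 3 of 3 sgEGR1 pairs. Opposite directions were sought only among genes named in the text. Some of these were named because they differed between the guides after SCF, which favours such a pattern, so the pattern is no test. The log2 interaction was 1.06 (edgeR adjusted p = 1), and DESeq2 called it. JMJD1C-AS1, an antisense RNA below 2 CPM, had the same pattern, with a log2 interaction of 2.60 (edgeR adjusted p = 1). In the reduced fit, edgeR called the interaction of BZW1-AS1 and of TCAF1P1, each at an adjusted p of 0.00292. BZW1-AS1 had no count in sgEGR1 SCF replicates 1 and 2 and 1.78 CPM in replicate 3. TCAF1P1, a pseudogene, was listed at 0 in all 3 sgEGR1 PBS libraries and held 2.76, 1.66 and 0.0 CPM in sgEGR1 SCF replicates 1, 2 and 3, against 1.61 to 2.50 CPM over the sgControl libraries.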

How the results depend on the processing

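The number of genes called between guides after SCF was 0 with all libraries, 2 with the replicate 1 term, 2 with the replicate block, 41 and 30 with the term and with the block when the library labelled sgEGR1 SCF replicate 3 was left out, 2 (PKM and CARS1) with replicates 2 and 3 only and 5 by DESeq2. It ranged from 0 to 2 when 1 SCF library was left out without the term. With the term, chosen after seeing the data, it was 4 without sgControl SCF replicate 2, 1 without sgEGR1 SCF replicate 1 and 2 without sgEGR1 SCF replicate 2. With the 6 SCF libraries only and the term, also chosen after seeing the data, it was 6, and 30 if sgEGR1 SCF replicate 3 was omitted too. Other scaling and filters gave 0. After PBS the number was 4 with the term, 2 with the block, 54 and 41 with either when that library was left out, and 20 by DESeq2, and the interaction had 2 calls with the term and with the block without that library and 4 by DESeq2.

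EGR1 after SCF was lower in sgEGR1 under all 23 alternatives, with log2 differences from -2.19 to -0.58 and edgeR or DESeq2 adjusted p from 0.00115 to 1. It passed the threshold at -2.08 with the term and -2.19 with the replicate block when the library labelled sgEGR1 SCF replicate 3 was left out, and at -2.06 with the term in the SCF libraries only, again without it, but that library was set apart for its EGR1 level, so these are no test of EGR1. Leaving out 1 library in turn gave -2.08 to -0.66. NAB2 after SCF was lower under all 23 alternatives, from -1.13 to -0.26. It was called at -1.10 with the term, -1.09 with the replicate block and -1.13 in the SCF libraries only with the term, each without that library. Since NAB2 followed EGR1 in these libraries, its calls are not independent of that choice either. Among list members, 4 were called with the term and 4 with the block without that library, 2 with replicates 2 and 3 only and 3 with the term in the SCF libraries only without that library, and leaving out 1 library gave 0 to 1. Of the SCF-responsive genes, 5 and 3 were called with the term and with the block without that library, 3 by DESeq2 and 2 with the term in the SCF libraries only without that library, and 1 each with the term without sgControl SCF replicate 2 or sgEGR1 SCF replicate 1. Leaving out 1 library without the term gave 0 to 1. The score difference of pair 3, 0.131, was 0.265 with the stricter choice of genes and -0.0138 without the term in the choosing fit. No gene near EGR1 was called under any alternative.

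EGR2 changed sign, to 0.076 with replicates 2 and 3 only and to 0.0383 and 0.0591 with the term without sgControl SCF replicate 1 or sgEGR1 SCF replicate 1. ITGA2B changed to 0.0368 with the term without sgEGR1 SCF replicate 2, and SPRED2 to 0.0506 with the term without sgControl SCF replicate 1. When 1 library was left out, EGR2 ranged from -0.12 to 0.19, ITGA2B from -0.58 to 0.20, SPRED2 from -0.36 to 0.11 and ITGB4 from -0.0909 to 0.72. The cause of these changes was not tested. With 3 libraries a group, or 2, an exact permutation test that exchanges libraries freely cannot go below p = 0.1, and genes below 2 CPM rest on few counts.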
